A study of Mus musculus with 6 samples.

Results

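Peaks of histone H3 trimethylated at lysine 27 (H3K27me3) at CpG-poor promoters were examined in mouse primary mesangial cells. A peak was counted when it lay on chromosomes 1 to 19, within 2 kb of the transcription start site (TSS) of a protein-coding gene of GENCODE M1, and within 2 kb of no CpG-rich TSS. A TSS was CpG-rich when the sequence 1 kb either side had a GC fraction of at least 0.5 and an observed/expected CpG ratio of at least 0.6, where the ratio sets the number of CpG dinucleotides against the number that the base composition would give. Of 11214 peaks in 6 samples, 1595 met this rule, 1418 lay at CpG-rich promoters and 7605 lay on the same chromosomes over 2 kb from any protein-coding TSS. CpG-poor TSS were the larger class, 14889 of 21418 on these chromosomes (69.5%).

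The samples were 3 labelled Control and 3 labelled TGF-beta1, the latter exposed for 72 h to TGF-β1 (10 ng/ml). All were grown in high glucose (25.5 mM) with 20% foetal bovine serum and used between passages 3 and 6, so the comparison was between Control and TGF-β1 in high glucose. Nothing in the labels says that the replicates came from separate cultures or animals, and the p-values then measure only the spread between these samples. The titles and the antibody label name H3K27me3, while the headers call the libraries gDNA and the extraction text describes immunoprecipitation of methylated DNA. The mark is called H3K27me3 here after the titles, and which protocol was followed cannot be told apart from the lists alone. No input library was used in peak calling.

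H3K27me3 is written by polycomb repressive complex 2, whose catalytic subunit is EZH2, and marks silent genes, many of them regulators of development and genes of other cell types. In mammalian cells the complex is recruited mostly to CpG islands, stretches of unmethylated CpG-dense DNA at the starts of housekeeping and developmental genes. Many tissue-specific genes start without such an island. Mesangial cells are the contractile, matrix-forming cells of the glomerulus, and TGF-β1 is the growth factor best known for driving their production of matrix.

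At some of these genes the sequence under the peaks was denser in CpG than the promoter nearby, and at others it was not. Windows of 120 bases before the TSS and 200 bases under the peaks are shown for H2-Ab1 (the beta chain of an MHC class II molecule), Tnxb (tenascin X, a matrix glycoprotein) and Cacna1s (the pore subunit of the skeletal muscle L-type calcium channel), 3 genes picked because their promoters were well below the CpG-rich threshold and their peaks were CpG-dense. All sequences are from mm9 and run 5′ to 3′ on the strand of the gene, with each CpG in capitals. For H2-Ab1 (plus strand) the windows were chr17:34400034-34400153, with 2 CpGs, and chr17:34401793-34401992, with 26 CpGs and 186 coding bases. For Tnxb (plus strand) they were chr17:34807360-34807479, with 1 CpG, and chr17:34808736-34808935, with 21 CpGs, all of it coding. For Cacna1s (plus strand) they were chr1:137949207-137949326, with 4 CpGs, and chr1:137947447-137947646, with 19 CpGs, outside the annotated Cacna1s gene.
H2-Ab1, before the TSS: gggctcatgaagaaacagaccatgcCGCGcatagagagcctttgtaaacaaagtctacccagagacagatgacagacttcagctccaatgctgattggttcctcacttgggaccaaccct
H2-Ab1, under the peaks: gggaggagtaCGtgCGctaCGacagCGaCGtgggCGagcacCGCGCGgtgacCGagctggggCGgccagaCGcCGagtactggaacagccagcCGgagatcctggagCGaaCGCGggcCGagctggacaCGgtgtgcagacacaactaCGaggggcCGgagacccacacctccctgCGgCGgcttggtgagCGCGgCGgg
Tnxb, before the TSS: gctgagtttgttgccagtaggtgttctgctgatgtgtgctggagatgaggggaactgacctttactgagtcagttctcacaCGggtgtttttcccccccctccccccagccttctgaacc
Tnxb, under the peaks: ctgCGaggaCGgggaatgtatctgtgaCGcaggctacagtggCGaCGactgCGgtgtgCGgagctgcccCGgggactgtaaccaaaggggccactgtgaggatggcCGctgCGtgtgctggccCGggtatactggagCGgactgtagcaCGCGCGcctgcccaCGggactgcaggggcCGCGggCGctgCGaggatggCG
Cacna1s, before the TSS: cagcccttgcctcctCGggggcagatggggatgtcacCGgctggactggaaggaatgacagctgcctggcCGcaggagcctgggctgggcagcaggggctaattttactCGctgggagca
Cacna1s, under the peaks: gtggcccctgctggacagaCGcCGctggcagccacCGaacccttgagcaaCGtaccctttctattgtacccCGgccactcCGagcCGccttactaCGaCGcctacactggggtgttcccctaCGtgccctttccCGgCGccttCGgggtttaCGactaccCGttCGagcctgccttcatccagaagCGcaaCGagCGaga

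In the RefSeq table for GRCm38.p6, the neighbour of Cacna1s on the upstream side was Ascl5, a gene of a basic helix-loop-helix factor that was not used as a TSS here. The peaks given to Cacna1s lay upstream of its TSS, so they may belong to Ascl5, which was not tested. Over the same 3 genes the observed/expected CpG ratio 1 kb either side of the TSS was 0.278 at H2-Ab1, 0.41 at Tnxb and 0.226 at Cacna1s. The median ratio of their peaks was 0.882, 0.967 and 0.862 in the same order. Peaks of other kinds are shown for Krt83 (a hair keratin), whose peaks crossed the TSS, for Sst (somatostatin), which had the highest fold enrichment among the named genes, and for Coil (coilin, of the Cajal body), where promoter and peak were both poor in CpG. In the short windows the order at Krt83 and Sst was the opposite, with a CpG ratio of 0.915 and 0.697 in the 120 bases before the TSS. The windows under the peaks had 0.827 and 0.234, and at Krt83 the 2 windows overlapped. Windows under the peaks were placed where the peaks of the samples overlapped most, outside annotated untranslated regions. At Sst this window lay 855 to 1054 bases past the TSS. The order in the short windows depends on this placement, and others were not tested. By the ratio 1 kb either side of the TSS, Krt83 had 0.503 against a median of 0.691 for its peaks, the same order as the 3 genes. Sst had 0.408 and 0.406, nearly equal. The windows of 200 bases were chr15:101269239-101269438 for Krt83 (minus strand, 18 CpGs, upstream of the TSS), chr16:23889876-23890075 for Sst (minus strand, 4 CpGs, 152 coding bases) and chr11:88830486-88830685 for Coil (plus strand, 1 CpG, upstream of the TSS).
Krt83, under the peaks: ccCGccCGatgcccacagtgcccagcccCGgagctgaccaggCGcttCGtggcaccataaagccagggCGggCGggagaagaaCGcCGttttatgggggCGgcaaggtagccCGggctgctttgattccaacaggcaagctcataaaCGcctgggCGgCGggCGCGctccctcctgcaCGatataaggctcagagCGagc
Sst, under the peaks: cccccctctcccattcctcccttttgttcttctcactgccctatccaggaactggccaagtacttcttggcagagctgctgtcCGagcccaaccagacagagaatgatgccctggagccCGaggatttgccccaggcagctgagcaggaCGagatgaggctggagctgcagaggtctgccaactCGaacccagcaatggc
Coil, under the peaks: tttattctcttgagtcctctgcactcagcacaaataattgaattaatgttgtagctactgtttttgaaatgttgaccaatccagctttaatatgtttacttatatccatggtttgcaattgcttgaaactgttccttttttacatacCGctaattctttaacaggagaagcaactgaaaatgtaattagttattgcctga

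Fewer peaks were called at CpG-poor promoters after TGF-β1. Control replicates 1 to 3 had 448, 437 and 301 such peaks, against 178, 77 and 154 in TGF-β1 replicates 1 to 3. Every TGF-β1 sample lay below every Control sample. The mean was 395.3 ± 81.9 in Control and 136.3 ± 52.8 with TGF-β1 (SD, n = 3 each). Log2 ratios of counts were taken between the group means of log2 counts, not between these means. The log2 ratio was -1.60, or 3.03 times fewer by geometric mean. A 2-sided exact permutation test gave p = 0.1, the smallest p that 3 against 3 samples allow. Pairing by replicate number (replicate block, exact sign-flip test) leaves the log2 ratio at -1.60 by construction, and gave p = 0.25, the smallest that 3 pairs allow. Over the 7 measures tested, Benjamini-Hochberg adjustment of the exact permutation p of 0.1 gave 0.117, for this and for each other measure at that value. TGF-β1 replicate 2 had the fewest peaks, and without it the log2 ratio was -1.23. With the 878 strongest peaks taken from every sample, 139, 136 and 125 lay at CpG-poor promoters in Control and 96, 77 and 104 with TGF-β1, and the log2 ratio was -0.54.

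The difference between the groups was larger at CpG-poor promoters than over 2 kb from any protein-coding TSS, a class that includes peaks inside genes. Their share of all peaks on chromosomes 1 to 19 was 17.4%, 16.9% and 15.9% in Control and 11.8%, 9.66% and 12.2% with TGF-β1. This was a difference of -5.52 percentage points (exact permutation p = 0.1), with no overlap between the groups. Peaks of that class numbered 1719, 1725 and 1283 in Control and 1214, 658 and 1006 with TGF-β1. The change at CpG-poor promoters was lower than the change there by 0.85 on the log2 scale (-0.85, exact permutation p = 0.1).

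Against CpG-rich promoters the order was the opposite. CpG-rich promoters had 409, 420 and 308 peaks in Control and 121, 62 and 98 with TGF-β1. The ratio of CpG-poor to CpG-rich promoter peaks was 1.10, 1.04 and 0.977 in Control and 1.47, 1.24 and 1.57 with TGF-β1, higher in every TGF-β1 sample (log2 difference 0.46, exact permutation p = 0.1). That direction did not hold among peaks of at least 4-fold enrichment, where only 2 to 19 peaks per sample remained at CpG-poor promoters (log2 difference -0.25, exact permutation p = 0.9). Tags after removal of duplicates numbered 20770206 to 21911472 in Control and 19721434 to 22307716 with TGF-β1, ranges that overlapped. The Control sample with the fewest tags, replicate 3, also had the fewest Control peaks, while TGF-β1 replicate 2 had the most tags and the fewest peaks, and the part of depth in the difference was not tested. In peak lists a loss of the mark and a weaker enrichment of a whole library cannot be told apart.

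**Figure D1:**
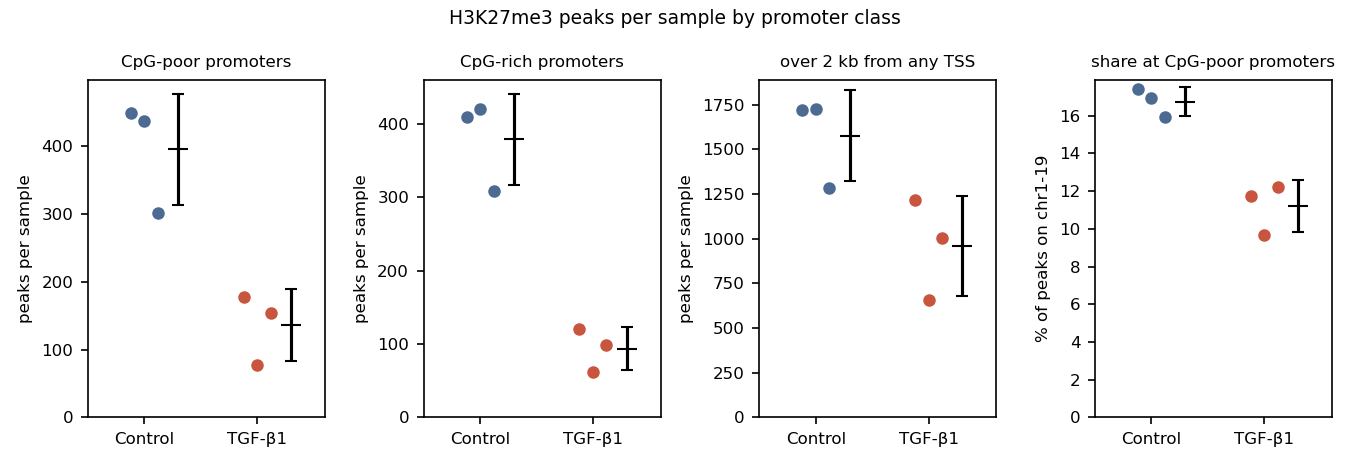
Number of H3K27me3 peaks per sample at CpG-poor promoters, at CpG-rich promoters and over 2 kb from any TSS, and the percentage of peaks on chr1-19 at CpG-poor promoters. Points are samples, bars are the mean and SD of 3. At CpG-poor promoters the Control samples sit between 301 and 448 and the TGF-β1 samples between 77 and 178.

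The median strength and width of the called peaks differed little between the groups, while the strongest peaks were in Control. The median fold enrichment, the ratio of the peak's pileup to the local background, was 1.75, 1.79 and 1.88 in Control and 1.93, 1.90 and 1.94 with TGF-β1. The groups did not overlap, with a log2 ratio of 0.09 (exact permutation p = 0.1), and its direction turned when weak peaks were left out (-0.74 among peaks with a mean −log10 q of at least 5). The highest fold enrichment was 11.2, 10.4 and 16.5 in Control and 6.42, 6.37 and 5.28 with TGF-β1, where fewer peaks were called. The median width was 520.5, 540 and 465 bp in Control and 477, 540 and 443 bp with TGF-β1, and the groups overlapped (log2 ratio -0.07, exact permutation p = 0.7). The sequence under members summed to 290.6, 295.5 and 171.2 kb in Control and 101.3, 52.5 and 80.7 kb with TGF-β1. Many peaks were weak, and 62.3% to 72.5% of them in each sample had a mean −log10 q under 1. On chromosome 9, which held 36 of the 1595 peaks, the local background implied by pileup and fold enrichment had a median of 87.3 to 130 per sample, against 2.65 to 3.98 on the other chromosomes, so fold enrichments there are not comparable with the rest.

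A total of 828 genes, 5.56% of those with a CpG-poor TSS, had a member peak within 2 kb. Per sample there were 458, 445 and 309 such genes in Control and 180, 79 and 159 with TGF-β1 (log2 ratio -1.60, exact permutation p = 0.1). Of the 828 genes, 421 had a peak in 1 sample and 407 in 2 or more, called recurrent here. Among the 407, 293 had a peak in more Control than TGF-β1 samples, 18 in more TGF-β1 samples and 96 in as many of each. The whole Control lists were also the longer ones, at 2692, 2699 and 2005 peaks against 1603, 878 and 1337 with TGF-β1. The same split was not counted over genes of either promoter class, so it cannot be read as particular to these genes. A peak could serve more than 1 gene, since 76 of the 1595 peaks lay near 2 or more TSS.

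The share of genes with a peak was higher where the promoter had a higher CpG ratio, although all of these promoters were CpG-poor. A peak was found at 1.14% of the 4813 genes with a ratio under 0.2 and at 3.25% of the 2619 with a ratio of 0.2 to 0.3. It was found at 6.26% of the 1838 genes with a ratio of 0.3 to 0.4, 11.3% of the 1997 with 0.4 to 0.5, and 11.7% of the 2755 with 0.5 to 0.6. The difference between the groups was also larger toward the CpG-denser end, with a log2 ratio of genes called of -0.71 under 0.2, -1.05 from 0.2 to 0.3, -1.46 from 0.3 to 0.4, -1.80 from 0.4 to 0.5 and -1.85 from 0.5 to 0.6. In the lowest class the counts overlapped between the groups (17, 21 and 16 genes in Control, 16, 9 and 9 with TGF-β1). In the highest class they did not (203, 205 and 136 in Control, 73, 26 and 64 with TGF-β1). These classes were chosen after the values were seen, and their differences were not tested.

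**Figure D2:**
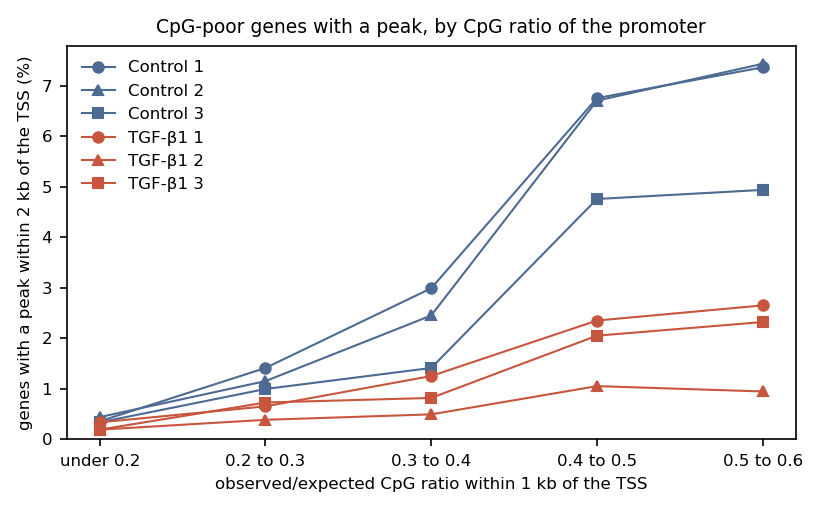
Percentage of genes with a CpG-poor TSS that had a peak within 2 kb, per sample, by observed/expected CpG ratio 1 kb either side of the TSS (genes with a ratio of 0.6 or more but a GC fraction under 0.5 are not drawn). Lines join the values of a sample. The Control and TGF-β1 lines lie close together under 0.2 and apart from 0.4 on.

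The line between the classes was not marked by a step in the share of genes called. With a GC fraction of at least 0.5, 142 of 1083 genes (13.1%) with a ratio of 0.55 to 0.6, just inside the rule, had a peak in any sample. Just outside it, at a ratio of 0.6 to 0.65, the number was 162 of 1271 genes (12.7%). By distance, 1239 members lay within 1 kb of a TSS and 356 at 1 to 2 kb, while 234 peaks lay just outside, at 2 to 3 kb from a TSS that was not CpG-rich.

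Many member peaks were CpG-rich on their own sequence, although the promoters near them were CpG-poor by the rule. The median GC content of member peaks was 59.5% and their median CpG ratio 0.541, against 49.2% and 0.176 for peaks away from any TSS and 62.7% and 0.675 at CpG-rich promoters. On their own sequence 37.1% of the member peaks passed the criteria for CpG-rich, against 62.1% at CpG-rich promoters and 9.73% away from any TSS. By gene, the median CpG ratio was 0.501 under the peaks and 0.474 at the TSS. The median ratio of the peak was above that of the TSS at 494 of 828 genes (59.7%), at 271 of the 407 recurrent genes (66.6%), and at 38 of the 46 genes called in every Control and no TGF-β1 sample (82.6%). The rule limits the ratio at the TSS and not under the peak, and the genes in the last group were selected by their calls, so no test was made.

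Of 140 genes with a TSS ratio under 0.3, 11 had a peak that was CpG-rich on its own sequence, and 9 of the 11 were recurrent. Besides Acta1 (skeletal muscle alpha-actin), H2-Ab1 and Cacna1s, these were Sspn (sarcospan, of the dystrophin complex), Gfra4 (a receptor of the GDNF family), C2cd4d, Spata3, Ltk (a receptor tyrosine kinase) and 1700001O22Rik. Sspn had a peak in the intron in all Control samples (fold enrichment 2.12, 1.76 and 1.97) and in TGF-β1 replicate 1 (1.44), but 82.4% of the 31-base words there occur more than once in the genome, so its reads cannot be placed with certainty. Gfra4 had a peak over coding sequence in all Control samples (1.44, 2.01 and 1.48) and in TGF-β1 replicate 1 (1.87). These genes were listed after their values were seen.

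**Figure D3:**
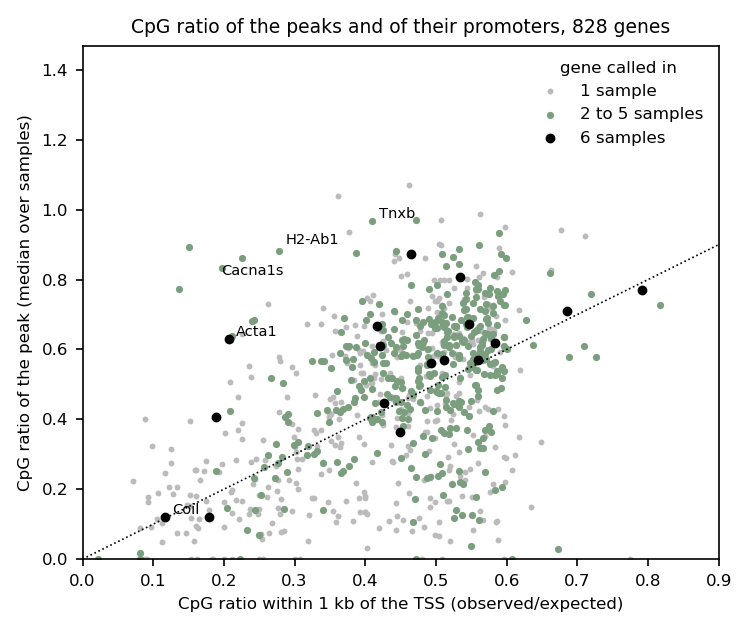
Median CpG ratio of the peaks of each of 828 genes against the CpG ratio 1 kb either side of its TSS, coloured by the number of samples with a peak. The dotted line marks equal ratios, and 494 genes lie above it, among them Acta1 (0.207 at the TSS, 0.629 under the peaks).

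Members lay downstream of the TSS more often than upstream. Of the 1595 peaks, 457 covered the nearest TSS, 848 lay downstream of it and 290 upstream. Peaks over coding sequence were found at 375 of the 828 genes (45.3%). Downstream peaks numbered 243, 232 and 166 in Control and 93, 32 and 82 with TGF-β1 (log2 ratio -1.75), and peaks over the TSS 124, 149 and 79 against 43, 21 and 41 (log2 ratio -1.77). Upstream peaks numbered 81, 56 and 56 against 42, 24 and 31, a smaller difference (log2 ratio -1.01). Peaks that were CpG-rich on their own sequence numbered 155, 193 and 115 in Control and 55, 19 and 54 with TGF-β1 (log2 ratio -1.98), and the others 293, 244 and 186 against 123, 58 and 100 (log2 ratio -1.41). The 113 peaks in which over 50% of the 31-base words occur more than once in the genome numbered 23, 25 and 15 in Control and 20, 11 and 19 with TGF-β1, overlapping between the groups (log2 ratio -0.35). These splits were chosen with values known, and the differences between them were not tested.

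Peaks of the 6 samples were joined into regions where they overlapped by at least 1 bp, which gave 875 regions at CpG-poor promoters. In all 3 Control and no TGF-β1 samples 42 were called (4.80%), against 2.31% of all 6711 regions on chromosomes 1 to 19. In all 3 TGF-β1 and no Control samples 0 were called, against 0.0894% of all regions. The Control lists were the longer ones, and with the 878 strongest peaks of each sample 5 regions were called in Control only and 3 with TGF-β1 only. In all 6 samples 17 were called (1.94%), against 2.85% of all regions. Most were called once, 515 of 875 (58.9%), and this was 73.3% over all regions. The Control-only count rested on weak peaks, since 2 such regions were left among peaks with a mean −log10 q of at least 5.

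By gene, with the full lists, 46 of the 828 (5.56%) had a peak in all Control and no TGF-β1 samples, below the 7.97% of the 1493 genes of either promoter class with a peak. No gene had the opposite pattern, and none of the 1493 did (0.0%). In 2 TGF-β1 and no Control samples 7 genes had a peak (0.845% of the 828), and the share over the 1493 was not counted. They were Atcay, Churc1, Fntb, Exoc3l2, Mettl22, 1810032O08Rik and Gm10719. Churc1 and Fntb shared 1 peak, of fold enrichment 2.02 and 2.09 in TGF-β1 replicates 1 and 3. A peak in all 6 samples was found at 17 genes (2.05%), near the 2.14% of the 1493.

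Among the 46 genes with a peak in every Control and no TGF-β1 sample, Krt83 had the highest mean fold enrichment, at 4.09, 6.08 and 5.95 in the 3 Control samples. Its peaks spanned chr15:101269024-101270458 and covered the TSS, reaching into the coding sequence. Dcc, the netrin receptor of growing axons, had a peak in an intron of fold enrichment 1.89, 2.02 and 8.67, so that Control replicate 3 set its mean. Accn2, an acid-sensing ion channel, reached 1.10, 4.41 and 3.47, and Dync1i1, a dynein intermediate chain, 2.80, 3.76 and 2.17. Control replicates differed widely at both.

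Transcription factors of other lineages made up several of the others. Prdm1, the repressor known from plasma cells and germ cells, had a peak 5 bp from the TSS with fold enrichments of 4.91, 1.54 and 2.0. Vsx1, a homeodomain factor of the retina, was even across the Control samples at 2.58, 2.40 and 2.58. Npas1, a basic helix-loop-helix factor of neurons, had 3.31, 2.45 and 1.68, and Barhl1, a homeodomain factor of the nervous system, 1.29, 3.31 and 1.90 in a peak 937 bp upstream. The replicates of these last factors differed by more than those of Vsx1.

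Tnxb had fold enrichments of 1.36, 1.80 and 3.78 over coding sequence. Rasgrp4, an exchange factor of mast cells, had 1.68, 3.44 and 1.33, with a CpG ratio of 0.257 at the TSS and 0.263 under the peaks. Slc7a14, of the cationic amino acid transporter family, had 2.05, 2.1 and 2.27 over its TSS. Cacna1s had 1.59, 1.96 and 2.85 in peaks upstream of its TSS, on the side of Ascl5. At all 12 genes no peak of any class within 2 kb was called with TGF-β1. A missing call says that no peak passed the threshold, not that the mark was absent.

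**Figure D4:**
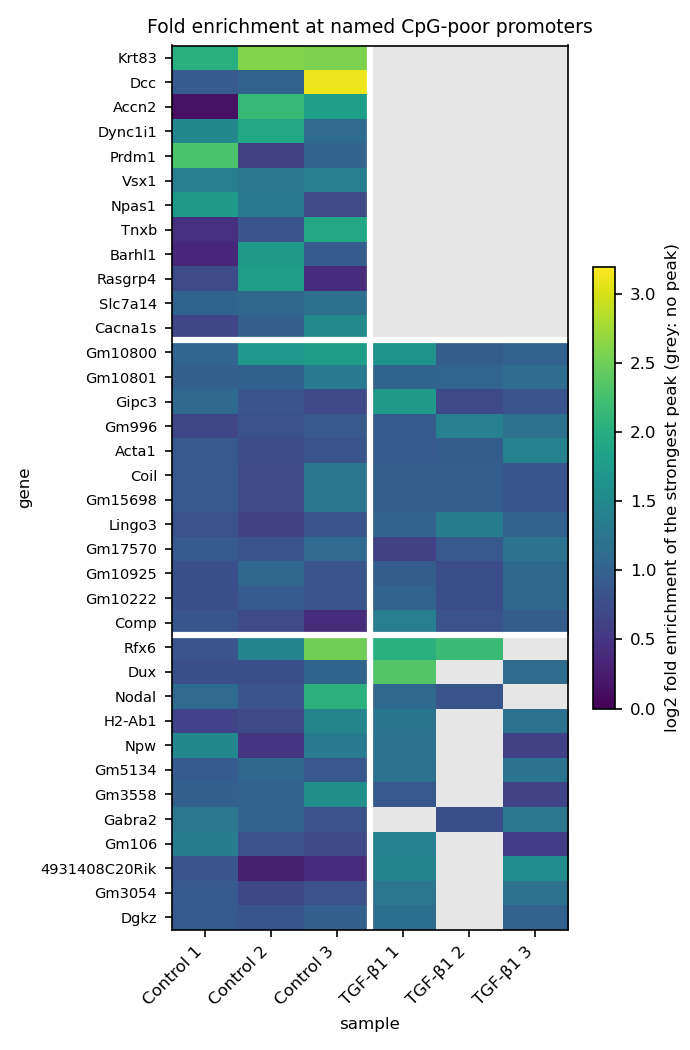
Log2 fold enrichment of the strongest peak within 2 kb of the TSS in each sample (columns) for genes (rows) called in all Control and no TGF-β1 samples, in all 6 samples, and in 5 of 6, up to 12 genes of each by mean fold enrichment. Grey marks samples without a peak. TGF-β1 replicate 2 is grey at 9 of the 12 genes called in 5 samples.

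Of the 17 genes called in all 6 samples, 6 had peaks with over 50% repeated words. These included Gm10925 and Gm10222, which shared peaks of 99.4% repeated words, and Gm10800 (61.9%). At such genes the reads cannot be placed with certainty.

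The genes called throughout on largely unrepeated sequence included Acta1, with fold enrichments of 1.86, 1.69 and 1.78 in Control and 1.88, 1.92 and 2.65 with TGF-β1. Comp, the cartilage oligomeric matrix protein, had 1.81, 1.66 and 1.34 in Control and 2.59, 1.77 and 1.93 with TGF-β1, over coding sequence and introns 1323 bp from the TSS. Lingo3, a leucine-rich repeat protein of neurons, had 1.73, 1.54 and 1.78 in Control and 2.02, 2.54 and 2.01 with TGF-β1. At Acta1 and Lingo3 every TGF-β1 sample lay above every Control sample, at Acta1 narrowly (1.88 against 1.86), and at Comp the groups overlapped. Gm996 had 1.59, 1.75 and 1.86 in Control and 1.88, 2.63 and 2.30 with TGF-β1, again without overlap. So did Pcnxl2, named after its values were seen, with 1.36, 1.89 and 1.83 against 2.18, 1.93 and 1.91. How often the groups separate over all shared regions was not counted.

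Gipc3, a PDZ protein needed for hearing, had 2.13, 1.80 and 1.63 in Control and 3.33, 1.63 and 1.79 with TGF-β1. Coil and Gm15698 shared a peak of 1.85, 1.68 and 2.39 in Control and 1.95, 1.95 and 1.81 with TGF-β1. Bmp3, a secreted member of the BMP family named after its values were seen, had 1.46, 1.80 and 1.22 in Control and 1.90, 2.23 and 1.45 with TGF-β1. All of these overlapped between the groups.

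Regions can reach beyond 2 kb of a TSS, so the 17 member regions called in all 6 samples are not the same set as the 17 genes above, and those of Galr2 and Gm4981 belong to no gene with a peak within 2 kb in all 6. For these regions limma on log2 of the highest fold enrichment called 0 at an adjusted p under 0.05, as it did over all 240 such regions of the series (0.0%). At an unadjusted p under 0.05 it found 1 of 17 and 24 of 240. Lingo3 came first, with a log2 difference of 0.37 ± 0.14 (SE) and an adjusted p of 0.441 (limma, Benjamini-Hochberg). Next were Gm996 (0.38 ± 0.16, adjusted p = 0.481) and Comp (0.38 ± 0.20, adjusted p = 0.498), both from limma. The median over the 17 was 0.08 and over the 240 it was 0.07, with 11 higher and 6 lower of the 17.

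Of the genes called in 5 of 6 samples, Rfx6, a factor of pancreatic islet development, was among the strongest. It had fold enrichments of 1.80, 2.71 and 5.70 in Control and 4.09 and 4.55 in TGF-β1 replicates 1 and 2. Nodal, a ligand of the TGF-β superfamily that patterns the early embryo, had 2.18, 1.79 and 4.17 in Control and 2.13 and 1.78 in the same TGF-β1 replicates. Neither was called in TGF-β1 replicate 3. Their called values overlapped between the groups.

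H2-Ab1 had fold enrichments of 1.56, 1.63 and 2.75 in Control and 2.36 and 2.28 in TGF-β1 replicates 1 and 3. Npw, the precursor of a neuropeptide, had 2.81, 1.39 and 2.49 in Control and 2.33 and 1.55 in the same replicates. Dgkz, a diacylglycerol kinase, had 1.87, 1.81 and 1.97 in Control and 2.23 and 2.0 with TGF-β1. Gabra2, a subunit of the GABA-A receptor, was called in TGF-β1 replicates 2 and 3 (1.71 and 2.41) and in Control at 2.40, 2.01 and 1.75. Among the 12 strongest genes called in 5 samples, the groups overlapped at 6. Every called TGF-β1 value lay above every Control value at 5, and below at 1 (Gm3558). The 5 were Dgkz, Gm5134, Gm3054, 4931408C20Rik and Dux, the last with 63.3% repeated words. The 12 genes were picked by fold enrichment, and the same count was not made over all genes called in 5 samples. With so few called values, the count is a description and was not tested.

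Genes with a CpG-poor TSS were sorted by symbol into lists of tissue-specific families, and the share of each list with a peak ranged from none to 19.5%, against 5.56% over all 14889 genes. Ion channels and neurotransmitter receptors stood highest, with 43 of 220 genes (19.5%). Per sample 22, 28 and 13 of them had a peak in Control and 3, 4 and 5 with TGF-β1. The recurrent ones included Gabra2 and Accn2, described above. Gria2, an AMPA receptor subunit, had fold enrichments of 1.59, 1.43 and 1.88 in Control and 1.5 and 2.23 in TGF-β1 replicates 2 and 3. Kcnj8, the pore subunit of a vascular ATP-sensitive potassium channel, had 1.90, 1.78 and 1.98 in Control and 2.49 in TGF-β1 replicate 3.

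Other G protein-coupled receptors had 26 of 183 genes with a peak (14.2%), 16, 14 and 12 in the Control samples and 4, 5 and 7 with TGF-β1. Hcrtr1, an orexin receptor, was called at 1.54, 1.53 and 2.0 in Control and at 2.20 and 2.13 in TGF-β1 replicates 2 and 3. Sstr5, a somatostatin receptor, was called at 1.79, 2.46 and 1.86 in Control and at 3.03 in TGF-β1 replicate 3. Galr2, a galanin receptor, was called at 1.93, 1.97 and 1.85 in Control and at 1.93 in TGF-β1 replicate 3, while the peaks of the other TGF-β1 samples in the same region lay over 2 kb from the TSS. Hrh1, a histamine receptor, was called in Control replicates 1 and 2 (1.56 and 1.57) and TGF-β1 replicates 1 and 3 (2.68 and 1.99).

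Hormones and neuropeptides had 13 of 94 genes with a peak (13.8%), with 7, 5 and 9 in Control and 2, 2 and 3 with TGF-β1. Sst was the strongest, at 11.2, 10.4 and 13.3 in Control and 6.37 in TGF-β1 replicate 2, with no peak in the other TGF-β1 samples. Tac1, the precursor of substance P, had 3.90 and 5.57 in Control replicates 1 and 3 and 1.89 and 2.01 in TGF-β1 replicates 1 and 3. At both genes every called TGF-β1 value lay below every called Control value, but at Sst this was 1 value. How often this occurs over all genes was not counted. Ucn, urocortin, had 1.70, 1.37 and 1.30 in Control and 1.49 in TGF-β1 replicate 3. Oxtr, the oxytocin receptor, had 1.73, 1.68 and 1.74 in Control alone. It is a receptor and not a hormone, and was counted in this list by its symbol. Npw, described above, was not matched by symbol and is not in the list.

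Extracellular matrix proteins and proteases had 17 of 122 genes with a peak (13.9%), with 12, 12 and 6 in Control and 7, 2 and 3 with TGF-β1, which overlapped. Col8a2, a collagen of basement membranes, had 1.89, 1.53 and 2.08 in Control and 1.15 and 1.94 in TGF-β1 replicates 1 and 2. Col14a1, a fibril-associated collagen, had 1.91, 1.69 and 1.97 in Control and 1.86 in TGF-β1 replicate 1. Lama1, a laminin chain, had 1.85, 1.78 and 1.52 in Control and 1.18 in TGF-β1 replicate 1. Of the matrix genes named, Comp alone was called in all 6 samples.

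Solute carriers had 32 of 250 genes with a peak (12.8%), with 21, 20 and 11 in Control and 3, 5 and 2 with TGF-β1. Slc29a4, a monoamine transporter, had 2.09, 1.24 and 1.75 in Control and 1.45 and 2.5 in TGF-β1 replicates 1 and 2. Slc30a10, a manganese exporter, had 1.49, 1.27 and 4.31 in Control and 1.5 in TGF-β1 replicate 2. The iron carriers Slc40a1 (ferroportin) and Slc11a2 (the divalent metal importer) both had peaks upstream of the TSS. Slc40a1 had 1.46, 1.53 and 1.52 in Control and 1.92 in TGF-β1 replicate 3. Slc11a2 had 3.12 and 2.57 in Control replicates 1 and 3 and 1.66 in TGF-β1 replicate 2. With peaks that also reach a CpG-rich TSS counted, Slc11a2 was called in 3 Control and 2 TGF-β1 samples.

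Developmental transcription factors had 19 of 174 genes with a peak (10.9%), with 9, 7 and 9 in Control and 4, 0 and 2 with TGF-β1. The list follows symbols and does not cover the whole class. Prdm1, Barhl1, Npas1 and Rfx6, described above, were in no tissue list, and Vsx1 was counted with the eye genes. Mesp1, a factor of early mesoderm, had 1.73, 1.80 and 1.90 in Control and 1.43 in TGF-β1 replicate 3. Foxn4 had 1.71 and 1.91 in Control replicates 2 and 3 and 1.41 in TGF-β1 replicate 1. Dlx5 was called in 1 sample of each group, at 3.33 and 3.18.

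Cell junction and adhesion genes had 15 of 173 with a peak (8.67%), with 11, 6 and 8 in Control and 6, 0 and 3 with TGF-β1, which overlapped. Gjb6, a gap junction connexin, had 1.51, 1.69 and 3.27 in Control and 1.53 in TGF-β1 replicate 1. Cldn7, a claudin of epithelial tight junctions, had 1.58, 1.68 and 1.35 in Control and 2.07 in TGF-β1 replicate 3. Cadm3, a neural adhesion molecule, had 1.56, 1.33 and 1.89 in Control and 1.92 in TGF-β1 replicate 1. Lrrc26, counted in this list by its symbol and not by a known adhesion role, was called in 2 samples of each group. It had 1.95 and 1.98 in Control and 1.87 and 2.54 with TGF-β1.

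**Figure D5:**
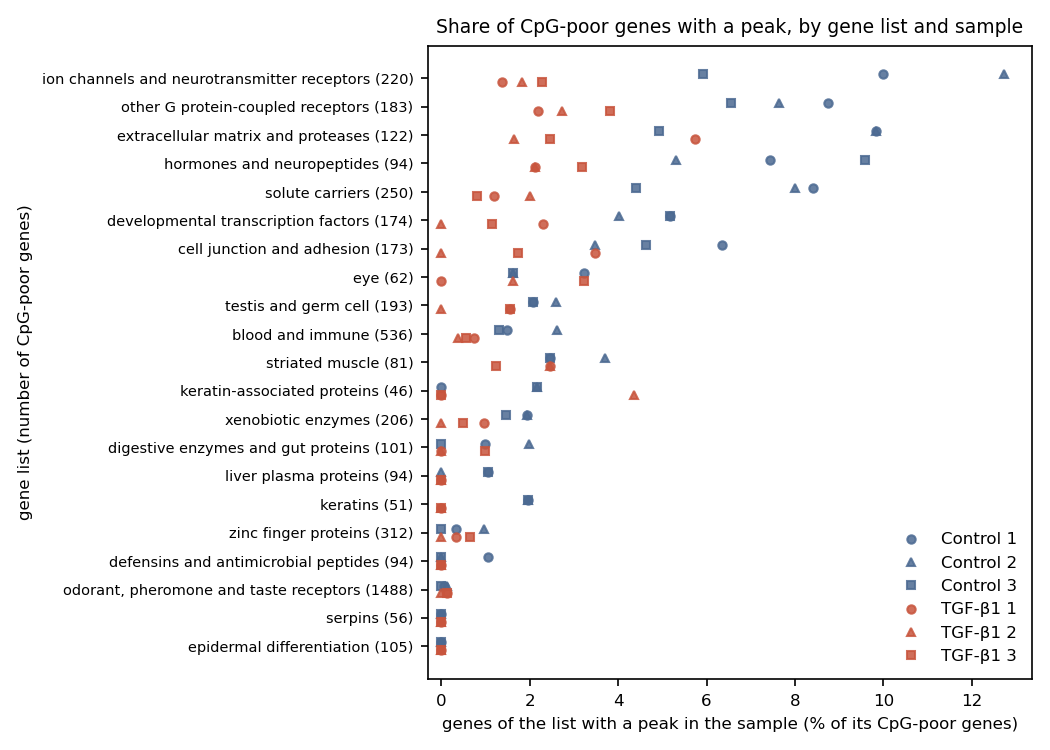
Percentage of the CpG-poor genes of each list with a peak in each sample, with the number of CpG-poor genes of the list in brackets. Points are samples, blue for Control and red for TGF-β1. Ion channels and neurotransmitter receptors stand highest in Control, and odorant receptors, serpins and epidermal differentiation genes lie at or near 0 in all samples.

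Several lists had few peaks in either group. Odorant, pheromone and taste receptors had 6 of 1488 genes with a peak (0.403%), with a median TSS ratio of 0.131. Epidermal differentiation genes had 0 of 105 and serpins 0 of 56. Keratins had 1 of 51, Krt83, and keratin-associated proteins 2 of 46. Defensins and antimicrobial peptides had 1 of 94, liver plasma proteins 2 of 94, and digestive enzymes and gut proteins 3 of 101.

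The order of the lists did not follow their CpG ratio alone. Zinc finger proteins had a peak at 6 of 312 genes (1.92%) with a median TSS ratio of 0.416, while hormones and neuropeptides, at 13.8%, had a median ratio of 0.193. Restricted to genes with a TSS ratio of at least 0.4, the share was 3.03% for zinc finger proteins (5 of 165). It was 31.9% for ion channels and neurotransmitter receptors (30 of 94), 33.3% for other G protein-coupled receptors (20 of 60), 45% for hormones and neuropeptides (9 of 20) and 10.2% for all CpG-poor genes (574 of 5619). The lists were read with their counts known, and no test was made between them.

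Blood and immune genes had 27 of 536 with a peak (5.04%), with 8, 14 and 7 in Control and 4, 2 and 3 with TGF-β1. Tnfrsf13c, the BAFF receptor of B cells, was called in Control replicate 2 (1.82) and in TGF-β1 replicates 1 and 3 (1.49 and 2.82). Xenobiotic enzymes had 7 of 206 (3.4%), among them Sult4a1, a sulfotransferase of brain, at 2.14, 1.84 and 2.34 in Control and 1.49 in TGF-β1 replicate 1. Striated muscle genes had 4 of 81 (4.94%). Besides Acta1 these were Actn2 (alpha-actinin of the Z disc), called in Control replicates 1 and 3 at 3.27 and 2.95, Mybpc1, and Ryr1, the calcium release channel of skeletal muscle. Testis and germ cell genes had 11 of 193 (5.70%) and eye genes 5 of 62 (8.06%).

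Markers of kidney cell types gave few calls, as did CpG-poor genes as a whole, of which 5.56% had a peak. Of 12 mesangial markers 10 had a CpG-poor TSS, and 0 of those 10 had a peak in any sample, while Pdgfra, with a CpG-rich TSS, had one. Of the podocyte markers, Nphs1 (nephrin) had a peak in TGF-β1 replicate 3 (2.72) and Cdkn1c had a peak at a CpG-rich TSS. None of 6 endothelial and none of 6 tubule markers had a peak. At so few genes a count of 0 is near the share over all CpG-poor genes. Peak lists show marking and not expression, and the purity of the cultures was not tested.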

How the data were processed

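H3K27me3 was profiled in primary mouse mesangial cells, with 3 samples of each treatment label (Control and TGF-beta1). Per the labels and the study's methods, reads were aligned to mm9 with BWA. Per the file headers, the authors called broad peaks in each sample separately with MACS 2.1.0.20150731, keeping 1 tag per position and using no control library; the methods also describe calling on merged replicates, which was not used here. Each deposited list gives, per peak, the pileup signal, the fold enrichment (a ratio over the local background), and the −log10 p-value and −log10 q-value, averaged over the broad peak. Depth was 19721434 to 22307716 tags after duplicates per sample.

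Peaks were placed on the mm9 sequence, whose chromosome lengths matched, with gene starts of GENCODE M1. Members were peaks on chromosomes 1 to 19 within 2 kb of a protein-coding TSS and of no CpG-rich TSS. Per-sample values were compared by exact permutation tests over samples, and regions called in all 6 samples by limma 3.58.1 (R 4.3.3) on log2 fold enrichment, with Benjamini-Hochberg adjustment over all such regions. The limma step was tested on simulated data with known changes. Repeated sequence was measured as the share of 31-base words found more than once in the assembly.

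Members and gene lists were chosen with earlier results of these data known. Genes were named when they had a peak throughout 1 group and nowhere in the other, in all 6 samples, or in 5 of 6 (up to 12 each by mean fold enrichment), and up to 4 per gene list by number of samples. Others are marked in the text as chosen after their values were seen. Alternatives tried were stricter thresholds, another TSS distance, CpG criterion and TSS set, joined peaks, equal peak numbers, exclusion of repeated sequence, a 50% overlap, the replicate block and leaving out each sample. Peaks on other chromosomes and unplaced sequence were left out because the rule does not cover them. Some genes that the naming rule or the marker lists cover, and some sequence, are not reported here.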

Additional observations from a re-analysis of the deposited data

How the results depend on the processing

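The direction of the peak number, the share, the change against peaks away from any TSS and the gene number held under all 15 alternatives run on each. These include the replicate block, which cannot change a direction. The peak number ranged from -1.84 to -1.23 (log2) when a sample was left out, and the share from -6.03 to -4.74 percentage points. The replicate block leaves every value unchanged by construction, for example -1.60 for the peak number, and only its p differs (exact sign-flip p = 0.25). Deviations of same-numbered samples from their group means correlated at r = -0.09, -0.04 and -0.15 over the 240 shared regions. For samples of different number r lay between -0.05 and 0.13. No label says whether same-numbered samples share a culture, and these few correlations cannot decide it.

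Among peaks of at least 4-fold enrichment, the change against CpG-rich promoters reversed to -0.25, the median fold enrichment to -0.073 and the median width to 0.21 (log2). With −log10 q of at least 5 the median fold enrichment was -0.74 and the median width 0.41 (log2), and with equal numbers of strongest peaks they were -0.035 and 0.022. The median width was between -0.14 and 0.00011 (log2) with a sample left out. Control-only regions numbered 2 at −log10 q of at least 5, 1 at 4-fold enrichment and 5 with equal numbers, and 51 to 99 with a sample left out (99 without Control replicate 3, 68 without TGF-β1 replicate 1, 64 without Control replicate 1). TGF-β1-only regions numbered 3 with equal numbers and 0 to 4 with a sample left out, with 4 without TGF-β1 replicate 2. Regions called in all samples numbered 2, 0 and 3 under those stricter choices, 11 without repeated sequence, and 16 to 38 with a sample left out (38 without TGF-β1 replicate 2). The stricter choices leave fewer peaks by construction. The limma count at these promoters was 0 under all 9 alternatives run, with 0 to 5 regions at an unadjusted p under 0.05, while on log2 pileup it called 2 of the 240 regions of the series. Weak calls and the lack of an input library limit what an absent peak can show.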

Other observations

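Chromosome X lay outside the rule and was not used in the comparisons. At its CpG-poor promoters 11, 11 and 5 peaks were called in the Control samples and 6, 2 and 4 in the TGF-β1 samples. At its CpG-rich promoters there were 7, 6 and 6 peaks in Control and 2, 0 and 2 with TGF-β1.

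The 18 recurrent genes with a peak in more TGF-β1 than Control samples, listed here after their values were seen, included Adora2a, an adenosine receptor, with fold enrichments of 1.96 in Control replicate 2 and 3.15 and 1.77 in TGF-β1 replicates 2 and 3. Dbx2, a homeodomain factor of the neural tube, had 1.79 in Control replicate 2 and 1.30 and 2.93 in TGF-β1 replicates 1 and 3. Car4, a membrane carbonic anhydrase, had 1.92 in Control replicate 1 and 2.62 and 1.56 in TGF-β1 replicates 1 and 3. None of the 18 was called in all 3 TGF-β1 samples.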
